A study of Homo sapiens with 6 samples.

Results

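The genes examined here code for the enzymes that build purine and pyrimidine nucleotides, turn them into the precursors of DNA, and supply the serine and folate units that this synthesis consumes. They numbered 37 of the 20503 genes named on the array, and were taken from a list of purine, pyrimidine, serine and folate pathway genes by name, not by their measured values. The choice of genes and lists was made with earlier results of these data known. The array carried 48 probes for them, and each gene was represented by its probe with the highest mean log2 signal over 6 arrays. The cells were of A673, a cell line derived from Ewing sarcoma that carries the EWS/FLI1 fusion, made to express the tetracycline repressor (TR) so that a lentiviral insert can be switched on with doxycycline. A673/TR/empty cells carry the vector without insert, and A673/TR/LOX-PP cells carry the propeptide region of lysyl oxidase, a secreted protein whose mature part cross-links the extracellular matrix. Each line was measured on 3 arrays, described as separate experiments. The treatment field of all 6 samples gives 1 uM doxycycline for 72 h, whereas the source names mention it for the LOX-PP samples only, so whether the empty cells received it is not settled by the labels. The comparison asked how the expression of LOX-PP altered the transcripts of the cells. The lines were selected as stable clones after infection, and the clone hybridised is not named, so a difference between the lines cannot be told apart from a difference between clones.

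De novo purine synthesis assembles the ring step by step on phosphoribosyl pyrophosphate and ends at IMP, from which separate branches lead to AMP and GMP. Pyrimidine synthesis builds the ring first, attaches it to the same sugar to give UMP, and then forms CTP. Folate coenzymes charged from serine give carbon to the purine ring and to thymidylate, and dividing cells, tumour cells among them, draw on these pathways to copy their DNA.

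On the 6 arrays 56.9% to 74.8% of probes were well above background, no gene spot was saturated, and the number of arrays limits the precision. Replicate 1 of the LOX-PP group was alone on its slide and in its scan, and the other 5 arrays shared a slide. The probe for LOX gave -0.086, 0.36 and 0.11 in the empty group and -0.12, -0.68 and -1.29 in the LOX-PP group (log2 signal minus the 75th percentile of the array), a difference of -0.82 with an adjusted p of 0.217 by limma, which did not pass the threshold. Its position relative to the propeptide insert is not given, so it does not check the induction. All 9 marker genes of Ewing sarcoma cells were well above background on every array, and limma called none of them (1 at an unadjusted p under 0.05, 0 by the methods' t-test). Of 32647 probes tested with limma, 1849 (5.66%) passed an adjusted p of 0.05, 1080 (3.31%) higher in LOX-PP cells and 769 (2.36%) lower. The median difference of all tested probes was 0.13, and -0.034 after quantile normalization, so each difference is also given relative to that median (the relative difference), while p-values refer to the plain difference.

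None of the 37 genes passed the threshold. All 37 were well above background on all 6 arrays, and limma gave 0 calls among them, neither higher (3.31% of all tested probes) nor lower (2.36%) and beside 5.66% in either direction, with 4 genes at an unadjusted p under 0.05 (21.3% of all probes) and 0 called by the methods' t-test. Those 4 were RRM2, CTPS2, MTHFD1L and HPRT1, all lower on the LOX-PP arrays, a direction in which 9.00% of all probes had such a p, and none was higher, in which 12.3% had. The lowest adjusted p was 0.0756, of HPRT1, and it was 0.0477 when the difference was set against the median of all probes instead of 0, a test added after seeing the data that called 1 of the 37 genes and 6.05% of all probes. No difference reached 2-fold, a size that 13.4% of all tested probes reached.

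The relative differences ran from -1.10 for MTHFD1L to 0.55 for NME2, with a median of -0.37, and 26 genes lay below the median of all tested probes and 11 above it. Of all named genes with a tested probe, counted by the same probe rule, 56.5% lay below that median. The 3 LOX-PP arrays were all below the 3 empty arrays for 11 of the 37 genes, compared with 13.4% of all tested probes and 18.2% of named genes. They were all above the empty arrays for 2 genes, UMPS and GMPS, compared with 16.1% of all tested probes, so that the groups were apart for 13 genes, beside 29.5% of all probes in either direction. These counts describe a list whose genes share arrays and are no test. The 95% intervals of limma spanned from -1.74 at the lowest to 1.44 at the highest, and the standard errors from 0.20 to 0.39, and a difference of 0 lay within the interval of all but those 4 genes. In bulk RNA, fewer cells in a given state and less RNA per cell cannot be told apart.

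**Figure D1:**
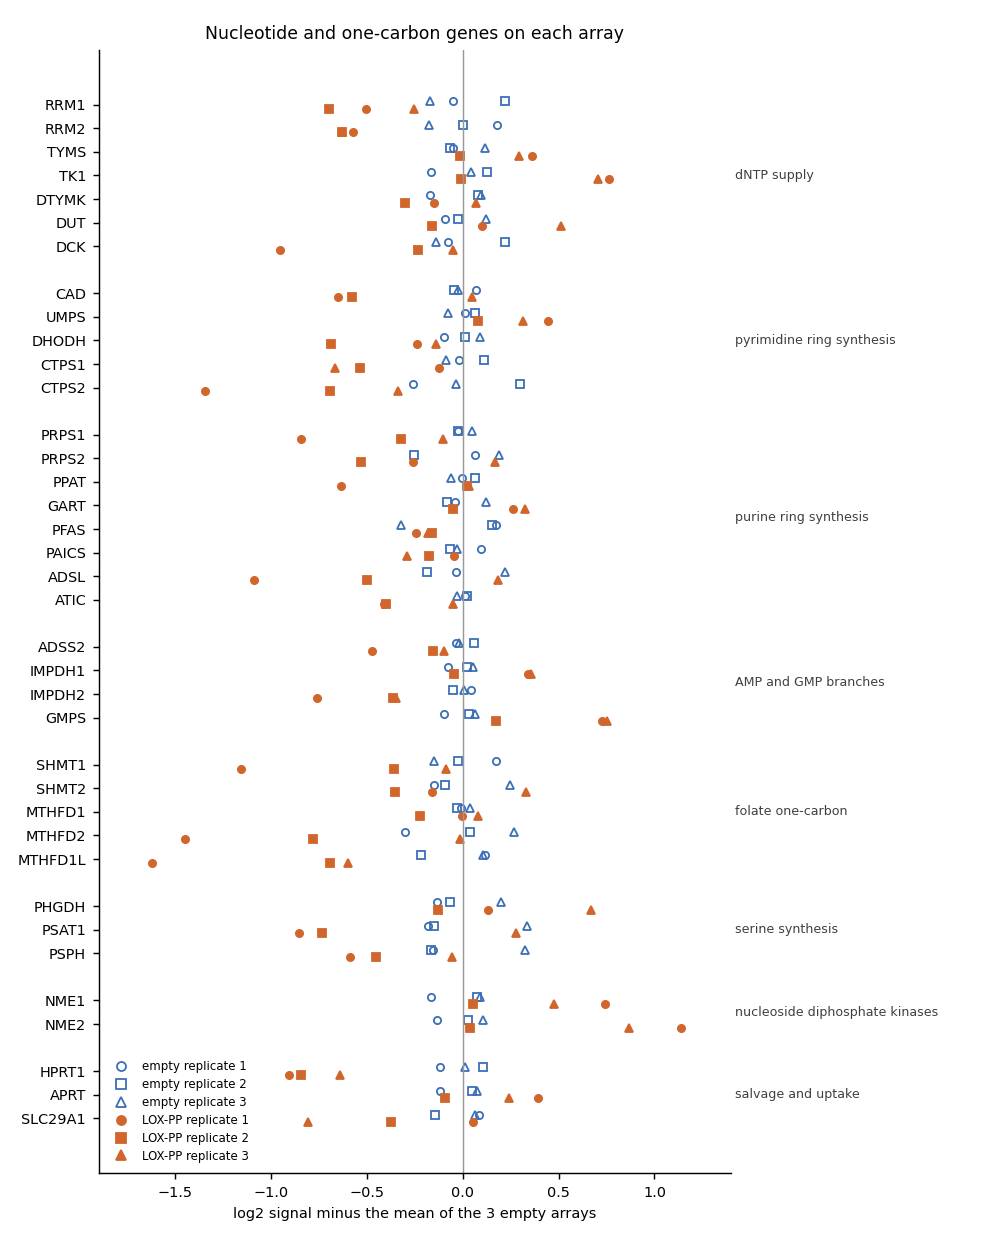
Log2 signal of each of the 37 genes on each array, minus the mean of the 3 empty arrays, with genes grouped by role. Open blue symbols are empty arrays and filled orange symbols LOX-PP arrays, with 1 shape per replicate number, and the LOX-PP symbols lie apart from the empty ones for 13 genes, 11 to the left and 2 to the right.

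**Figure D2:**
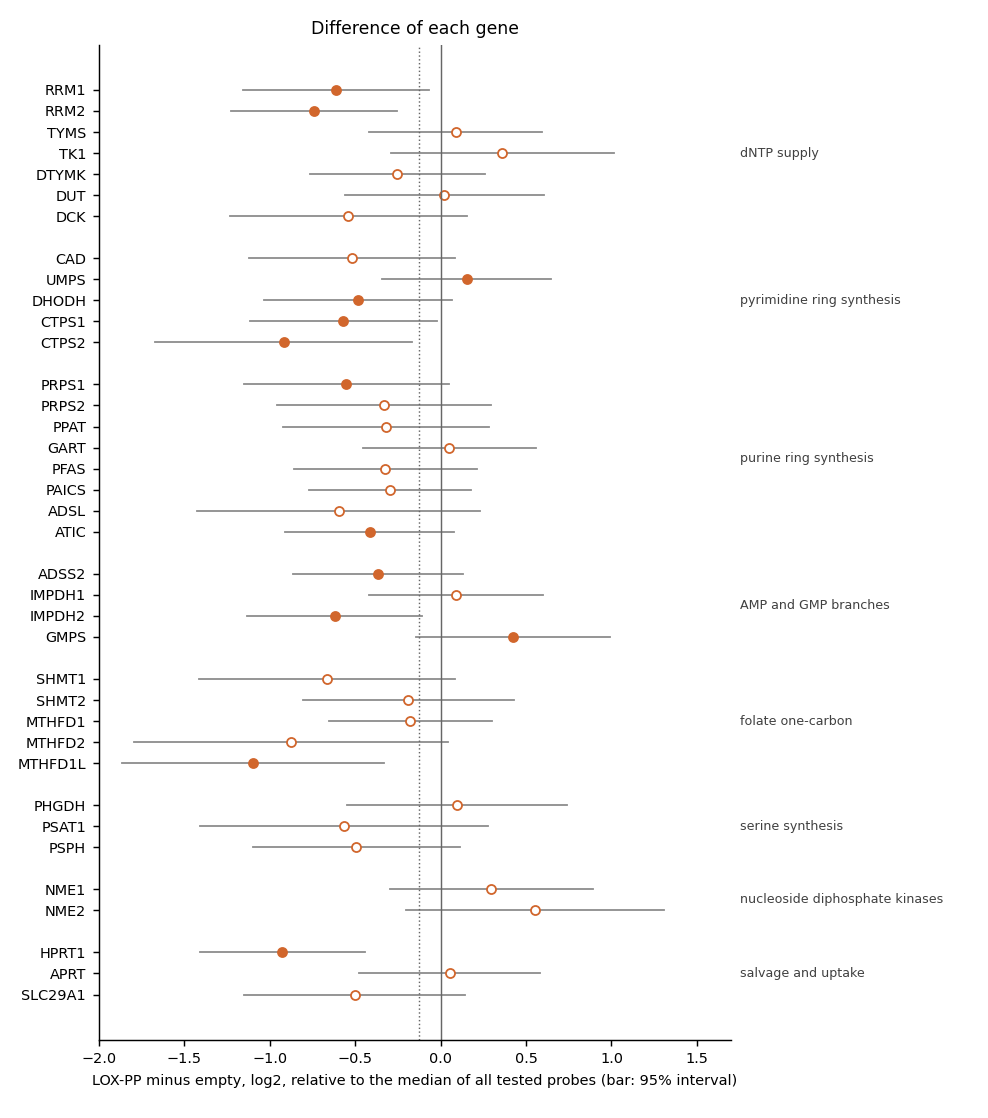
Difference of each gene between the LOX-PP and empty arrays (n = 3 each), on the log2 scale and relative to the median of all tested probes, with its 95% interval from limma as a bar. Filled points mark genes whose groups did not overlap and the dotted line marks a plain difference of 0. MTHFD1L lies farthest to the left at -1.10 and NME2 farthest to the right at 0.55.

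Promoter sequences from RefSeq (GRCh38.p14; 250 bases before to 50 after a gene's start, on the gene's strand) were found for 33 of the 37 genes. ADSL, IMPDH2, SHMT2 and PSPH had no window. They were searched on both strands for sequences that factors known to act on these pathways bind, as exact letters: the CCAAT box (CCAAT, bound by NF-Y), the GC box (GGGCGG, bound by SP1 and its relatives), the E-box of MYC (CACGTG), an ATF4-type element (TGATGNAA) and E2F sites (TTTCCCGC, TTTGGCGC, TTTCGCGC and TTTGCCGC). The windows of 5 genes are shown, picked after their values were seen. HPRT1, MTHFD1L and RRM2 were among the genes with the lowest p. GMPS lay higher on every LOX-PP array, and PPAT shares its start region with PAICS. Capitals mark the matches, none of which overlap in these windows.
HPRT1, chrX:134459915-134460214, plus strand: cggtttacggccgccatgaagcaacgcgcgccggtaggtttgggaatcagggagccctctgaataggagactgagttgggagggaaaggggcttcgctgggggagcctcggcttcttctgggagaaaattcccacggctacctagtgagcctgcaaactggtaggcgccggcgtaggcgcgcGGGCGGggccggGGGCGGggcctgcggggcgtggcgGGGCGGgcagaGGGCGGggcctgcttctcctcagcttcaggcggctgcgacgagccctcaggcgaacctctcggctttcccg
MTHFD1L, chr6:150866236-150866535, plus strand: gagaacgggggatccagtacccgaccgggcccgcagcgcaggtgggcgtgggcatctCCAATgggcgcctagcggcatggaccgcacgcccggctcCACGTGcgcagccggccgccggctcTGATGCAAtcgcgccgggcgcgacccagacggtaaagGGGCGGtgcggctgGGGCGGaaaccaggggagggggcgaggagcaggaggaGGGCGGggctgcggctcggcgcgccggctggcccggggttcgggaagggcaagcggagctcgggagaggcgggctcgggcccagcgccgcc
RRM2, chr2:10122489-10122788, plus strand: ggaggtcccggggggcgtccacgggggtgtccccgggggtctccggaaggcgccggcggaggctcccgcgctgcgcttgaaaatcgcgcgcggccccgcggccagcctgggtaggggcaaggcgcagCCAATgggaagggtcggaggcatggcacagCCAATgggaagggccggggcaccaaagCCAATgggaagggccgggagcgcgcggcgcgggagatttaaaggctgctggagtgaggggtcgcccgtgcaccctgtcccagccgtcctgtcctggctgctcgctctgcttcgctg
GMPS, chr3:155870400-155870699, plus strand: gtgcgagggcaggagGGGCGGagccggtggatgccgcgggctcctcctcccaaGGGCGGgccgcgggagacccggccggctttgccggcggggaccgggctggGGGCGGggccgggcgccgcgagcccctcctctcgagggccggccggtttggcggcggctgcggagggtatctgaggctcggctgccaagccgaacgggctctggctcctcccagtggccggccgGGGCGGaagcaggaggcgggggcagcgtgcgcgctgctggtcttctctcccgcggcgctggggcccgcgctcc
PPAT, chr4:56435566-56435865, minus strand: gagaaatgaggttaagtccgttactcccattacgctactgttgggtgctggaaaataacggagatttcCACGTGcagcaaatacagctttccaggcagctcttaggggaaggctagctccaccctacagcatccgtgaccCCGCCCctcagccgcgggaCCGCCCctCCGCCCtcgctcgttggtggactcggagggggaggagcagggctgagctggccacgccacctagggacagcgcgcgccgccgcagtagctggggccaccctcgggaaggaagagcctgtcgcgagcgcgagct

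The HPRT1 window held 4 GC boxes and no other match, and that of GMPS also held 4 GC boxes. The RRM2 window, 1 of 2 for that gene, held 3 CCAAT boxes, and a GC box lay in the window not shown. The MTHFD1L window, 1 of 4 for that gene, was the only one among the 5 with an ATF4-type element, which lay beside 1 CCAAT box, 1 E-box and 3 GC boxes. PPAT and PAICS are read away from each other from starts 137 bases apart, and their windows overlap by 236 bases. Their transcripts differed between groups by -0.19 and -0.17 on the log2 scale. Some genes had several windows, so the shares count genes with a match in any window. Of the 33 genes 81.8% held a GC box, 45.5% a CCAAT box, 27.3% an E-box, 15.2% an E2F site and 3.03%, which was MTHFD1L alone, an ATF4-type element. Of all 27305 genes of the table the shares were 48.3%, 39.7%, 8.77%, 3.99% and 4.46%. Counted by window, the 51 windows of the 33 genes gave 72.5%, 39.2%, 21.6%, 9.8% and 5.88%. The 35116 windows of the table gave 45.0%, 34.6%, 7.26%, 3.31% and 3.62%. A match describes the letters of the window and does not show that a factor was bound.

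RRM1 and RRM2 code for the large and small subunits of ribonucleotide reductase, which converts ribonucleotides to deoxynucleotides. RRM2 measured 3.81, 3.63 and 3.45 in the empty group and 3.05, 3.00 and 3.00 in the LOX-PP group. All LOX-PP arrays lay below all empty arrays, by -0.61 ± 0.21 (SE) on average (95% interval -1.10 to -0.13), a 1.53-fold lower signal with an adjusted p of 0.148 by limma. RRM1 measured 4.79, 5.06 and 4.67 on the empty and 4.34, 4.14 and 4.59 on the LOX-PP arrays. The groups did not overlap there either, and the difference was -0.49 ± 0.23 (adjusted p = 0.278, limma). TYMS makes thymidylate with a folate carbon, and TK1 makes it from thymidine taken up by the cell. TYMS measured 5.56, 5.55 and 5.73 on the empty and 5.97, 5.60 and 5.91 on the LOX-PP arrays, and TK1 5.81, 6.10 and 6.02 on the empty and 6.74, 5.97 and 6.68 on the LOX-PP arrays. The groups overlapped for both genes, with differences of 0.21 and 0.49 and relative differences of 0.088 and 0.36 that turned to -0.067 and -0.023 under quantile normalization. DTYMK, which phosphorylates thymidylate, differed by -0.13 ± 0.22. DUT, which removes dUTP, differed by 0.15 ± 0.25, and DCK, which phosphorylates deoxycytidine, by -0.41 ± 0.29. Of the 7 genes that supply deoxynucleotides, 4 thus lay below the median of all probes and 3 above it (median relative difference -0.25), and all 7 lay below it under quantile normalization.

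CAD carries the first steps of the pyrimidine ring, DHODH oxidises its product in the mitochondrion, UMPS completes UMP, and CTPS1 and CTPS2 aminate UTP to CTP. CAD measured 4.55, 4.43 and 4.45 on the empty and 3.82, 3.90 and 4.53 on the LOX-PP arrays, so that replicate 3 of the LOX-PP group fell among the empty arrays while the other two lay below them (-0.39 ± 0.25). DHODH measured 2.43, 2.54 and 2.62 on the empty and 2.29, 1.84 and 2.39 on the LOX-PP arrays, without overlap (-0.36 ± 0.23, adjusted p = 0.428 by limma). The groups were also apart for CTPS1, at 4.76, 4.89 and 4.70 on the empty and 4.66, 4.24 and 4.12 on the LOX-PP arrays, and the difference was -0.44 ± 0.23. CTPS2 measured 1.64, 2.20 and 1.86 on the empty and 0.55, 1.20 and 1.56 on the LOX-PP arrays. Its difference of -0.79 ± 0.32 (95% interval -1.54 to -0.039, adjusted p = 0.214 by limma) was the farthest from 0 of the 5 pyrimidine genes, with a wide spread among the LOX-PP arrays. UMPS ran the other way, at 4.85, 4.90 and 4.76 on the empty and 5.28, 4.92 and 5.16 on the LOX-PP arrays. All LOX-PP arrays lay above the empty arrays, although replicate 2 did so by little, and the difference was 0.28 ± 0.21. The relative difference of UMPS was 0.15, while the median of the 5 genes was -0.52.

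PRPS1 and PRPS2 make phosphoribosyl pyrophosphate, PPAT takes the committed step of purine synthesis, and GART, PFAS, PAICS, ADSL and ATIC carry the ring to IMP. Of these 8 genes, 7 lay below the median of all probes and 1, GART, above it, and their median relative difference was -0.33. PRPS1 measured 5.17, 5.17 and 5.25 on the empty and 4.35, 4.87 and 5.09 on the LOX-PP arrays, without overlap (-0.42 ± 0.25, adjusted p = 0.382 by limma). ATIC measured 4.44, 4.45 and 4.40 on the empty and 4.02, 4.03 and 4.38 on the LOX-PP arrays. These did not overlap either, but replicate 3 of the LOX-PP group lay just under the lowest empty array (-0.29 ± 0.21). PPAT measured 2.37, 2.43 and 2.31 on the empty and 1.73, 2.39 and 2.40 on the LOX-PP arrays. Only replicate 1 of the LOX-PP group lay below the empty arrays, and the difference of -0.19 ± 0.25 was within the spread of that group. ADSL, which acts both in ring synthesis and in the step to AMP, differed by -0.47 ± 0.35, and its LOX-PP arrays covered a range of 1.27, the second widest of the 37 genes. PRPS2, PFAS and PAICS differed by -0.21, -0.20 and -0.17, with overlapping groups. GART differed by 0.18 ± 0.21, a relative difference of 0.051.

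IMPDH1 and IMPDH2 oxidise IMP, the rate-limiting step of guanine nucleotide synthesis, and GMPS aminates the product, and IMPDH2 and GMPS had measured differences of opposite sign. IMPDH2 measured 4.58, 4.49 and 4.54 on the empty and 3.77, 4.17 and 4.18 on the LOX-PP arrays. All LOX-PP arrays were lower, by -0.49 ± 0.22 (adjusted p = 0.250, limma), which was more than the range within either group. GMPS measured 4.88, 5.01 and 5.04 on the empty and 5.71, 5.15 and 5.73 on the LOX-PP arrays. All LOX-PP arrays were higher, by 0.55 ± 0.24 (95% interval -0.017 to 1.12, adjusted p = 0.246 by limma). The gene stayed above the median of all probes under all 17 alternatives, by 0.25 to 0.69, but several of these leave a relative difference unchanged by design. IMPDH1 differed by 0.22 ± 0.22 with overlapping groups, and its relative difference of 0.091 was -0.25 under quantile normalization. ADSS2, the first enzyme toward AMP, measured 2.33, 2.42 and 2.35 on the empty and 1.89, 2.21 and 2.26 on the LOX-PP arrays. The groups did not overlap, with a difference of -0.24 ± 0.21.

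SHMT1 in the cytosol and SHMT2 in the mitochondrion move a carbon from serine to folate, MTHFD2 and MTHFD1L carry it through the mitochondrion to formate, and MTHFD1 takes it up again in the cytosol. All 5 genes lay below the median of all tested probes, with a median relative difference of -0.66, the lowest of any role, but the relative difference of SHMT2 was 0.035 without replicate 2 of the LOX-PP group. MTHFD1L measured 2.77, 2.43 and 2.75 on the empty and 1.03, 1.95 and 2.05 on the LOX-PP arrays. All LOX-PP arrays were lower, replicate 1 the most, and the signal was 1.96-fold lower on average (-0.97 ± 0.32, 95% interval -1.74 to -0.21, adjusted p = 0.145 by limma). Its 4 probes gave differences between -1.02 and -0.85. MTHFD2 measured 4.25, 4.59 and 4.82 on the empty and 3.10, 3.77 and 4.54 on the LOX-PP arrays. Replicate 3 of the LOX-PP group fell among the empty arrays, and the group covered 1.44, the widest range of the 37 genes, so that the difference of -0.75 ± 0.39 had the widest interval (-1.67 to 0.17). SHMT2 measured 5.25, 5.31 and 5.64 on the empty and 5.24, 5.05 and 5.73 on the LOX-PP arrays. These overlapped fully, with a difference of -0.062 ± 0.26. SHMT1 and MTHFD1 differed by -0.54 ± 0.32 and -0.051 ± 0.20.

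Serine itself is made from a glycolytic intermediate by PHGDH, PSAT1 and PSPH. PHGDH, the first enzyme, measured 5.36, 5.43 and 5.70 on the empty and 5.62, 5.37 and 6.16 on the LOX-PP arrays. Replicate 3 of the LOX-PP group was above all empty arrays and the other two were among them, and the difference was 0.22 ± 0.27, with a relative difference of 0.096 that was -0.011 under quantile normalization. PSAT1 and PSPH differed by -0.44 ± 0.35 and -0.37 ± 0.26, and replicate 3 was the highest LOX-PP array for both. The groups overlapped for all 3 genes.

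NME1 and NME2 code for nucleoside diphosphate kinases, which turn diphosphates into the triphosphates that polymerases use. NME2 had the difference farthest above 0 of the 37 genes, at 6.01, 6.17 and 6.25 on the empty and 7.28, 6.18 and 7.01 on the LOX-PP arrays. Replicates 1 and 3 of the LOX-PP group were above all empty arrays and replicate 2 was among them, and the difference was 0.68 ± 0.32 (95% interval -0.077 to 1.44, adjusted p = 0.276 by limma). NME1 differed by 0.42 ± 0.25, also with replicate 2 among the empty arrays. Under quantile normalization the relative differences of NME2 and NME1, 0.55 and 0.30 otherwise, were 0.044 and -0.040.

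Salvage recovers free bases, and HPRT1 returns hypoxanthine and guanine to IMP and GMP. HPRT1 measured 4.34, 4.57 and 4.47 on the empty and 3.55, 3.62 and 3.82 on the LOX-PP arrays. The groups were farther apart than the range within either, and the signal was 1.74-fold lower on the LOX-PP arrays (-0.80 ± 0.20, 95% interval -1.28 to -0.31, adjusted p = 0.0756 by limma). Its relative difference of -0.93 stayed between -1.10 and -0.69 under 17 alternatives, with an adjusted p between 0.0477 and 0.291. Several of these alternatives leave a relative difference unchanged by design. APRT, the counterpart for adenine, differed by 0.18 ± 0.22, and its relative difference of 0.054 was -0.14 under quantile normalization. SLC29A1, a nucleoside transporter of the cell membrane, differed by -0.38 ± 0.27.

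The LOX-PP arrays differed among themselves more than the empty arrays did. The median range of the 37 genes was 0.23 over the empty arrays and 0.58 over the LOX-PP arrays, and for 33 genes the wider range exceeded the difference between the groups. RRM1, RRM2, IMPDH2 and HPRT1 were the exceptions. Replicate 3 of the LOX-PP group was the highest of its group for 26 genes and the lowest for 3, whereas replicate 2 was the highest for 1 gene. Replicate 1 was the lowest for 16 genes and the highest for 10. Among the 5 arrays of the shared slide, which leaves out replicate 1 of the LOX-PP group, 0 of the 37 genes passed the threshold by limma (6.32% of all probes in that fit), 5 had an unadjusted p under 0.05 (26.7% of all probes), and 30 lay below the median of all probes, with a median relative difference of -0.33. The 6 proliferation markers measured (MKI67, TOP2A, PCNA, CCNA2, CDK1 and MCM2) had relative differences from -0.90 for CCNA2 to -0.0029 for TOP2A, all below the median of all probes (4 of 6 under quantile normalization). The plain difference was below 0 for 3 of these markers and above 0 for 3. Limma called none of them (0 at an unadjusted p under 0.05, 0 by the methods' t-test). Their part in the differences was not tested.

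Most of the 37 genes gave strong signals, with 26 in the top bin and 35 in the top 3 bins when all tested probes were split by mean signal into 10 equal bins. Differences between the groups moved with signal over all probes. The lowest bin had a median relative difference of 0.22, bins 8 and 9 of -0.25 each, and the top bin of -0.046. Under quantile normalization the plain median of the top bin was -0.017 and that of the lowest -0.13, and the median relative difference of the 37 genes was -0.25, with 33 of them below the median. The part of signal level in the differences was not tested. The 4 genes on the X chromosome, CTPS2, PRPS1, PRPS2 and HPRT1, all lay below the median of all probes, where 48.6% of the 591 X-linked genes did. The 5 on chromosome 2, where 65.0% of 1080 genes lay below it, did so as well, whereas 2 of the 5 on chromosome 17 did, where 43.0% of 1011 genes lay below it.

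**Figure D3:**
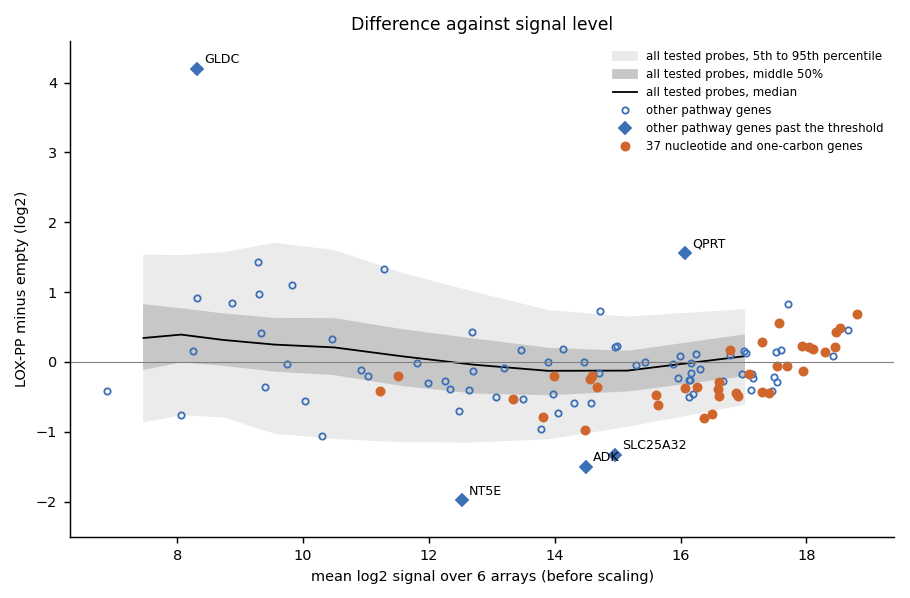
Difference between the LOX-PP and empty arrays (log2) against the mean log2 signal of the probe over 6 arrays, before scaling. The black line and grey bands give the median, the middle 50% and the 5th to 95th percentile of all tested probes in 10 bins of signal. Orange points are the 37 genes, which sit at the right and mostly within the bands, and blue marks are other genes of the same pathways, with the 5 past the threshold as named diamonds.

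Several probes existed for 9 genes, 20 in all. The 48 probes of the 37 genes included 0 past the threshold by limma (5.66% of all tested probes). An unadjusted p under 0.05 was found for 6 of them (21.3% of all tested probes). These 6 were all lower on the LOX-PP arrays, a direction in which 9.00% of all tested probes had such a p. The probes differed in sign for CTPS2, DUT and GART. For CTPS2 the dimmer probe gave 0.35 against -0.79 for the brighter one, so its direction rests on the choice of probe. Both probes of CTPS1, PPAT, PRPS1, PSAT1 and SHMT1 lay below 0, but they differed in size. The dimmer probe gave -0.038 against -0.54 for SHMT1, -0.012 against -0.19 for PPAT and -0.21 against -0.44 for CTPS1, and it gave -0.84 against -0.42 for PRPS1 and -1.03 against -0.44 for PSAT1.

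Enzymes that do the same reaction in different forms or places can be compared within an array, where a constant scaling of the array cancels. The log2 difference of 8 such pairs was compared between groups with a two-sided exact permutation test over arrays, which with 3 arrays against 3 cannot give a p below 0.1. The difference of IMPDH1 over IMPDH2 was 1.38, 1.57 and 1.55 on the empty and 2.60, 1.82 and 2.21 on the LOX-PP arrays. It was the only pair whose groups did not overlap, with a shift of 0.71 toward IMPDH1 (exact permutation p = 0.1, 0.4 after adjustment over 8 pairs), but the shift was 0.15 under quantile normalization. MTHFD1 over MTHFD2 shifted by 0.70 toward the cytosolic enzyme (exact permutation p = 0.2), from 0.98, 0.61 and 0.46 on the empty to 2.13, 1.24 and 0.78 on the LOX-PP arrays. Replicate 1 of the LOX-PP group was the farthest out, and the lowest LOX-PP array lay within the empty range. RRM2 over RRM2B, the subunit for DNA repair and quiescent cells, shifted by 0.45 (exact permutation p = 0.2) and by 0.80 under quantile normalization. RRM2B itself was lower on all LOX-PP arrays, at -1.57, -1.53 and -1.35 on the empty and -2.89, -2.59 and -2.18 on the LOX-PP arrays (-1.07 ± 0.25, adjusted p = 0.0584 by limma). Its second probe gave -0.32, and with that probe the pair shifted by -0.30, the other way. RRM2B lies on chromosome 8, where 73.3% of 558 genes lay below the median of all probes, with a median relative difference of -0.42. The part of the chromosome in this shift was not tested. The shifts of the other pairs were -0.47 for SHMT1 over SHMT2, -0.36 for TK1 over TK2, 0.35 for CTPS1 over CTPS2, -0.26 for NME1 over NME2 and -0.22 for PRPS1 over PRPS2, all with overlapping groups. With the dimmer probe in place of the brighter one the shift was 0.024 for SHMT1 over SHMT2 and -0.80 for CTPS1 over CTPS2 (the probe of CTPS2), so that the sign of 3 of the 8 pairs depended on the probe. TK2, the mitochondrial thymidine kinase, was well above background on 2 of the 3 arrays of each group, at -3.45, -3.64 and -4.52 on the empty and -1.94, -3.84 and -3.31 on the LOX-PP arrays.

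**Figure D4:**
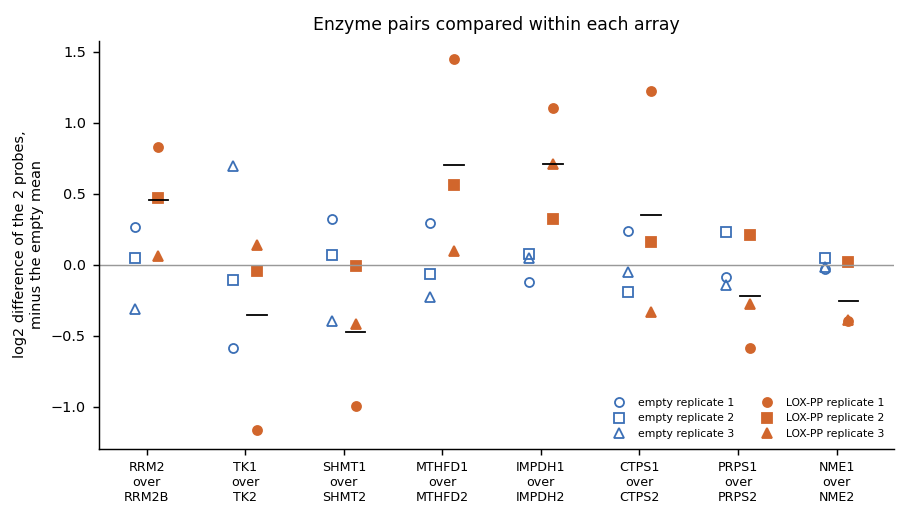
Log2 difference of the probes of 8 enzyme pairs on each array, minus the mean of the 3 empty arrays of that pair. Open blue symbols are empty arrays, filled orange symbols LOX-PP arrays and black dashes the mean of the 3 LOX-PP arrays. The symbols of the groups are apart for IMPDH1 over IMPDH2 and mixed for the other pairs.

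Beyond the 37, a list of other genes of the same pathways held 79 genes named on the array, of which 75 could be tested (BHMT, AMPD3, DPYS and SLC28A3 were not well above background on enough arrays). Of these, 5 passed the threshold, 6.67% beside 5.66% of all tested probes and 7.07% of named genes. This list too was chosen with earlier results of these data known. GLDC and QPRT rose, and SLC25A32, ADK and NT5E fell. DPYD, one of the breakdown genes, was not called with its brighter probe (-0.56, adjusted p = 0.375 by limma). Its dimmer probe gave -1.81 with an adjusted p of 0.0458 by limma, so whether it is called rests on the choice of probe. GLDC, the glycine decarboxylase of the glycine cleavage system, a source of folate carbon, measured -5.86, -6.53 and -5.91 on the empty and -2.75, -2.53 and -0.43 on the LOX-PP arrays. It was well above background on 1 of the 3 empty arrays and on all LOX-PP arrays, so it entered the test through the group in which it was high. The difference was 4.20 ± 0.61 (adjusted p = 0.0134, limma), and its size depended on the background correction, with a relative difference of 4.07, and of 2.56 with normexp. QPRT, which joins quinolinate to phosphoribosyl pyrophosphate in NAD synthesis, measured 2.90, 2.69 and 3.33 on the empty and 4.30, 4.53 and 4.75 on the LOX-PP arrays. All LOX-PP arrays were higher, by 1.55 ± 0.26 (adjusted p = 0.0198, limma).

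SLC25A32, the carrier that brings folate into the mitochondrion, measured 3.08, 3.57 and 3.24 on the empty and 1.99, 1.91 and 2.02 on the LOX-PP arrays and fell by 1.33 ± 0.22 on the log2 scale (adjusted p = 0.0204, limma). It lies on chromosome 8, where the median relative difference of 558 genes was -0.42. ADK, which phosphorylates adenosine, measured 2.87, 2.97 and 2.93 on the empty and 0.96, 1.59 and 1.71 on the LOX-PP arrays, a difference of -1.50 ± 0.26 (adjusted p = 0.0235, limma). NT5E, the surface enzyme CD73 that releases adenosine from AMP, measured 1.18, 1.36 and 1.05 on the empty and -1.19, -0.45 and -0.71 on the LOX-PP arrays. Its difference was -1.98 ± 0.26 (adjusted p = 0.00896, limma), and its second probe gave -1.20 with an adjusted p of 0.0311 by limma. The groups did not overlap for any of the 5 genes, nor for 29.5% of all tested probes. The 5 were picked by their calls on these same arrays, so neither this nor the following ranges add support. When an array was left out, their relative differences stayed between -1.55 and -1.25 for SLC25A32, -1.77 and -1.43 for ADK, -2.25 and -1.94 for NT5E, 1.32 and 1.54 for QPRT and 3.34 and 4.46 for GLDC. The number of calls moved more in these smaller fits, as 0 of the 75 genes passed without replicate 1 or without replicate 2 of the empty group, 3 without replicate 3 of that group, and 6, 2 and 3 without replicates 1, 2 and 3 of the LOX-PP group. The methods' t-test called 1 of the 75 genes, MAT2B of the methionine cycle, and none of these 5, beside 1.73% of all tested probes. Of the 15 genes of the folate cycle and transport, SLC25A32 among them, 14 lay below the median of all probes (11 of 15 under quantile normalization). Of all named genes with a tested probe, 56.5% lay below that median. The 6 nucleoside monophosphate kinases had relative differences from -0.30 to 0.10. The transcription factors MYC, E2F1 and ATF4, which act on many of these genes, differed by -0.40 ± 0.25, 0.092 ± 0.22 and 0.46 ± 0.32, and none of these passed the threshold. MYC lies on chromosome 8, as SLC25A32 does.

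**Figure D5:**
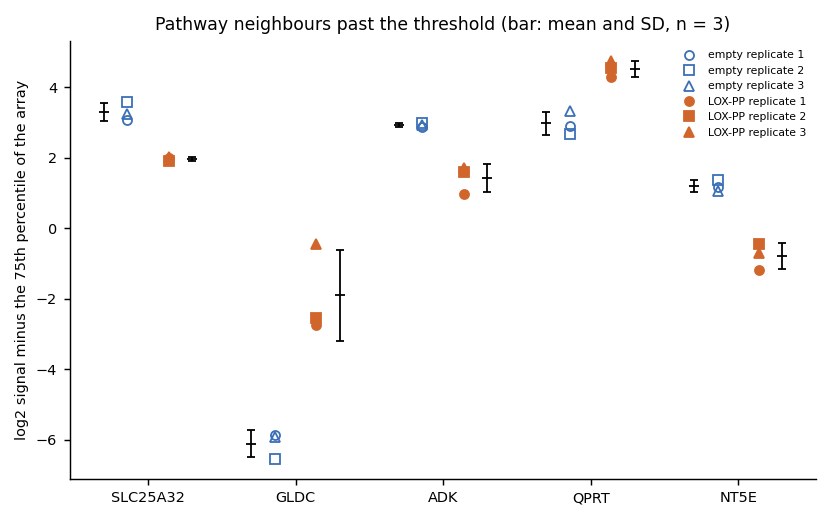
Log2 signal minus the 75th percentile of the array for the 5 other pathway genes past the threshold, on each empty array (open blue) and LOX-PP array (filled orange), with the mean and SD of each group (n = 3) as bars beside the points. The groups are apart for all 5 genes, and GLDC has the widest spread over the LOX-PP arrays.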

How the data were processed

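RNA of 6 cultures, 3 of A673/TR/empty and 3 of A673/TR/LOX-PP, was hybridised in 1 colour to Agilent arrays. The authors deposited the intensity of every spot as Feature Extraction (version 10.7 in the submitters' processing notes) wrote it, with a background-corrected signal and flags. They also deposited a table of processed log2 values, which differed from those computed here, centred on the median of each probe, by more than 0.02 for 62 of 50599 probes. The normalization is not given in the sources used here.

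From the deposited intensity, control and outlier spots were left out, the spots of a probe were averaged as log2 signals, and every array was set to its own 75th percentile over probes. A probe had to be well above background on 3 arrays or more to be tested. The test was done with limma (version 3.58.1, R 4.3.3) without a block, with Benjamini-Hochberg adjustment over all 32647 tested probes and a threshold of 0.05. Standard errors and intervals are those of limma, and of the steps only the limma fit was tried on simulated data. A RefSeq table named 28174 of the 50599 probes, and a second one gave promoters. Both are on GRCh38.p14, whereas the array design is on hg19 per the file headers of 5 arrays, so the tables gave names, chromosomes and promoter sequences only.

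Values on every array are given for genes whose groups did not overlap, for named step enzymes, and for other pathway genes past the threshold. Genes and lists were chosen with earlier results of these data known. CTPS2, DUT and GART were examined probe by probe and the promoters picked after their values were seen. UPP1 of the pathway list was not found by name. Groups come from the sample titles. Alternatives were quantile normalization, the median of detected probes, the authors' log2 table, normexp with an offset of 50 on the median spot signal, 2 other filters on dim probes, the slide or the replicate number as a block, the methods' t-test (Student's), each array left out, the mean of a gene's probes, and, for enzyme pairs, the other probe of a gene.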

Additional observations from a re-analysis of the deposited data

How the results depend on the processing

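Over all tested probes the count past the threshold was 1849, and 516 without a filter on dim probes, 860 with a replicate block, 566 with the methods' t-test, and 407 to 2062 when each array was left out in turn, with the lowest counts without replicate 1 (407) or replicate 2 (444) of the empty group, 892 without replicate 2 and 1037 without replicate 3 of the LOX-PP group. Of the 37 genes, 0 passed under all alternatives with limma or the methods' t-test except in the test against the median of all probes, which was chosen after seeing the data and called 1. Of the other pathway genes, 5 passed, compared with 7 under quantile normalization, 7 among probes above background on all 6 arrays (a filter that removes GLDC), 1 without a filter (NT5E), 2 with a replicate block (GLDC and NT5E), 1 with the methods' t-test, and 0 to 6 when an array was left out. The relative differences of the calls lost without a filter were -1.63 for SLC25A32, -1.80 for ADK, 1.25 for QPRT and 3.90 for GLDC. The median relative difference of the 37 genes, -0.37, was -0.54 without a filter and -0.44 to -0.28 when an array was left out.

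Under quantile normalization the pair shifts were 0.80 for RRM2 over RRM2B, 0.15 for IMPDH1 over IMPDH2 and -0.084 for NME1 over NME2. With another probe of a gene, tried after seeing the data, they were -0.30 for RRM2 over RRM2B, 0.024 for SHMT1 over SHMT2, -0.80 for CTPS1 over CTPS2 and -0.63 for PRPS1 over PRPS2. Relative differences changed sign in 32 of 629 gene and alternative combinations, in 10 of the 37 genes, and 27 genes had no change of sign. The median of detected probes, the replicate block, the methods' t-test and the test against the median keep a relative difference by design. The authors' log2 table holds nearly the same values. Combinations with these alternatives could hardly change sign, so the count is no measure of stability. Under quantile normalization the relative differences that changed sign were -0.067 for TYMS, -0.023 for TK1, -0.25 for DUT, -0.25 for IMPDH1, -0.011 for PHGDH, -0.040 for NME1 and -0.14 for APRT. With normexp they were -0.057 for DUT, -0.044 for PHGDH and -0.043 for APRT. The fit without a filter left the plain differences of the 37 genes as they were and moved the median of all probes from 0.13 to 0.30, so each relative difference was lower by the same amount (-0.18), and the changes of sign there are of that median alone. They were -0.088 for TYMS, -0.15 for DUT, -0.024 for UMPS, -0.13 for GART, -0.085 for IMPDH1, -0.081 for PHGDH and -0.12 for APRT. With the slide as a block, which equals leaving out replicate 1 of the LOX-PP group, they were -0.021 for TYMS, -0.028 for GART, -0.0068 for IMPDH1 and -0.088 for APRT. With the probes of a gene averaged they were -0.14 for DUT and -0.14 for GART. When an array was left out, the ranges were -0.021 to 0.28 for TYMS, -0.16 to 0.26 for DUT, -0.028 to 0.24 for GART, -0.0068 to 0.30 for IMPDH1, -0.38 to 0.035 for SHMT2, -0.13 to 0.35 for PHGDH and -0.088 to 0.27 for APRT. Apart from the moved median of the unfiltered fit, the cause of these changes of sign was not tested. In the fits that leave an array out, the lower number of arrays and the array removed cannot be told apart.

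Whether the replicate numbers pair the samples was not settled by the arrays. The deviations of same-numbered arrays correlated at 0.27, -0.27 and 0.31 over probes. Replicates 1 and 3 of the empty group correlated best with the LOX-PP array of the same number, and replicate 2 with replicate 1 of the LOX-PP group (0.30). Deviations from a mean of 3 arrays depend on one another, so these correlations cannot decide it. With 3 arrays per group, intervals are wide, the slide of replicate 1 of the LOX-PP group cannot be told apart from that array, and signals near background, as for GLDC on the empty arrays, set only a rough size of the difference.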
